A study of Mus musculus with 6 samples.

Results

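The genes described here are 40 genes of the interferon pathway, chosen by symbol for their known roles as interferon receptors, JAK kinases, STAT and IRF factors, RNA sensors or interferon-stimulated genes. All 40 were found among the 32061 genes of the count table, matched through their Ensembl identifiers. They were split by role into 12 signalling genes (receptors, kinases and factors) and 28 effector genes (sensors and stimulated genes). RNA was sequenced from 6 samples of cultured mouse biliary epithelium, the lining of the bile ducts, in 2 groups of 3. The cilia-depleted cells had been given 4OHT (commonly short for hydroxytamoxifen, which switches on Cre recombinases fused to an oestrogen receptor), and the cilia-competent cells had not. Both groups came from bile ducts picked by hand out of digested liver, grown as organoids in Matrigel and then moved to flat culture on collagen. The labels give neither the deleted gene nor the strain, the promoter driving Cre, the age or the number of mice. The drug and the loss of cilia coincide in every sample and cannot be told apart.

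Interferons are secreted proteins that warn cells of infection. Type I interferons bind the receptor chains Ifnar1 and Ifnar2, and interferon gamma binds Ifngr1 and Ifngr2. At the type I receptor the bound kinases Jak1 and Tyk2 then phosphorylate STAT proteins. Stat2 and Irf9 are subunits of the factor ISGF3, which binds the interferon-stimulated response element (ISRE), whereas the response to interferon gamma acts through the gamma-activated sequence (GAS). The genes switched on in this way sense, block or edit viral RNA, or regulate the response itself. Epithelial cells such as cholangiocytes carry the whole pathway and keep many of its genes at a low basal level.

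The promoters of 6 of these genes are shown because they carry the elements just named and because their genes went in different directions in the data. Each window holds 250 bases before and 50 bases from the annotated transcription start, read 5′ to 3′ on the gene's strand, from RefSeq on GRCm38.p6. Capitals mark matches to the ISRE core, which is GAAA, any 2 bases and GAAA again, or to the GAS element TTCNNNGAA, on either strand. Irf1 has 2 annotated windows, of which the upstream one is shown. The windows are chr11:53769764-53770063 (plus strand) for Irf1, chr10:128270248-128270547 (plus) for Stat2, chr19:34640639-34640938 (plus) for Ifit1, chr19:34583279-34583578 (plus) for Ifit3, chr4:156200769-156201068 (minus) for Isg15 and chr8:71537423-71537722 (minus) for Bst2.
Irf1: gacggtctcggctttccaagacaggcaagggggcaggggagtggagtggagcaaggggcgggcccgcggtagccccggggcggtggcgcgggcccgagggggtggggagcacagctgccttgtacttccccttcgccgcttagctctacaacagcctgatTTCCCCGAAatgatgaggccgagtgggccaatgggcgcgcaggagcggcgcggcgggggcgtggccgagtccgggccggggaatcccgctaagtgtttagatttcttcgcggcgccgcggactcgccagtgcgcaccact
Stat2: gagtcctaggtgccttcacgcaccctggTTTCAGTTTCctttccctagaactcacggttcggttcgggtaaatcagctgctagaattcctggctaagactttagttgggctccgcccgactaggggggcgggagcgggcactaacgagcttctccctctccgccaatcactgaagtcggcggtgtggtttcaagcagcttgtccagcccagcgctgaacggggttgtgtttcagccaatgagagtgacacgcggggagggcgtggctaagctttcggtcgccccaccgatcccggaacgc
Ifit1: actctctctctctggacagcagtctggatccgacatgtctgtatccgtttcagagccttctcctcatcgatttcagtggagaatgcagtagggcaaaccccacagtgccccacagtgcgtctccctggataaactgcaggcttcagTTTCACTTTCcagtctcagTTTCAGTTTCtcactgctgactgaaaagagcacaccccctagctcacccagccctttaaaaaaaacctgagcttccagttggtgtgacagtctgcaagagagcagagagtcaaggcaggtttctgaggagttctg
Ifit3: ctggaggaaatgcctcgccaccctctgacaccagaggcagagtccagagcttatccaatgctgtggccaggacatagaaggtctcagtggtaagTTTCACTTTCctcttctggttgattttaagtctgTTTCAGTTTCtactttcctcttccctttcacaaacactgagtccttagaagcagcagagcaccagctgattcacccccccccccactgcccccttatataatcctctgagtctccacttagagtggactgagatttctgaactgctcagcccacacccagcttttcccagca
Isg15: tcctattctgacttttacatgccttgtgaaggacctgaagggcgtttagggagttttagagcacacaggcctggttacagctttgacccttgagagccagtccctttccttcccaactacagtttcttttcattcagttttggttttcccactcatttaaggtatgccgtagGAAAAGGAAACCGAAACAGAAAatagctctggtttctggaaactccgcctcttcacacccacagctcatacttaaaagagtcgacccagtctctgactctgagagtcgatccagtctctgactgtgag
Bst2: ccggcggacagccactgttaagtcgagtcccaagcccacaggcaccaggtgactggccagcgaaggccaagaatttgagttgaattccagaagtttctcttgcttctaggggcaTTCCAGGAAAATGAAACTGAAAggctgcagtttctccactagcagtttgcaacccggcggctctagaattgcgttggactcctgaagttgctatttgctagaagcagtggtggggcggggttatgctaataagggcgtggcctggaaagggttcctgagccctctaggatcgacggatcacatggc

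Irf1 held a GAS match whose first base lay at position -90 from the start and no ISRE core in this window. Stat2 held an ISRE core at position -222. Ifit1 held ISRE cores at -104 and -85, and Ifit3 at -156 and -122. In Isg15 there were 3 cores that overlap each other, at -78, -72 and -66. Bst2 held overlapping cores at -130 and -124, the first of which also overlaps a GAS match at -136. Among the 32 members with a RefSeq window, 12 (37.5%) held an ISRE core, against 3.99% of 27025 genes in the whole table. The core was present in 10 of 20 effector genes and in 2 of 12 signalling genes. A GAS match was present in 10 of the 32 members (31.2%), against 9.55% of all genes. The ISRE core did not sort the genes by direction, since it was found in 6 of 15 members that rose in depleted cells, 3 of 8 that fell and 3 of 9 that did not pass the test. A GAS match was found in 3 of the 15, 5 of the 8 and 2 of the 9. A match is a description of the letters, and no match says only that these letters are not in this window.

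Library totals were 26293486 to 36998935 counts in depleted and 32199606 to 36093068 counts in competent samples. Levels are in CPM (counts scaled to a common library total) with TMM factors, a normalization that assumes most genes do not change, and 3 counts correspond to 0.0797 to 0.119 CPM. The 40 genes together took 0.227% to 0.239% of the counts in depleted and 0.183% to 0.224% in competent samples. No label says that the samples of a group came from different animals or cultures, and the p-values therefore reflect only how far these samples vary, possibly for technical reasons. Wdr35, a component of intraflagellar transport chosen as the likely target from knowledge of the study, had 28.0 ± 1.60 CPM in depleted and 33.3 ± 1.98 CPM in competent cells (SD, n = 3 each). Loss of single exons cannot be seen in such gene-level counts. Of the biliary markers, Krt7 had 2471 ± 51.2 CPM in depleted and 3150.4 ± 67.7 CPM in competent cells, while Krt19 was low, at 8.33 ± 1.25 CPM in depleted and 12.5 ± 1.13 CPM in competent cells. Leukocyte markers were near 0: 7 of 8 had at most 3 counts in any sample, Nkg7 and Siglech had none, and their summed level was 0.142 to 0.468 CPM in depleted and 0.141 to 0.294 CPM in competent samples. Of 6 macrophage markers, Adgre1, Clec4f and Lyz2 had at most 3 counts, whereas Cd14, Csf1r and Cd68 were detected, and the 6 summed to 326 to 339 CPM in depleted and 273 to 295 CPM in competent samples. Which cells carried the Cd14, Csf1r and Cd68 RNA, and its part in the results, was not tested.

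One library stood apart for these genes. Competent replicate 2 had the highest level of the 3 competent samples in 26 of 28 effector genes and in 8 of 12 signalling genes, whereas it was the highest in 33.7% of all genes tested. Its effector genes stood at a median 1.46-fold of the mean of the other two competent samples, with the 2'-5' oligoadenylate synthetase gene Oas2 at 4.46-fold, Dhx58 at 2.83-fold and Mx1 at 2.42-fold. Signalling genes stood at a median 1.07-fold, with Irf7 at 2.23-fold, Stat2 at 1.45-fold, Irf9 at 1.25-fold and the other 9 at 0.954-fold to 1.15-fold. The spread of the effector genes was correspondingly wide in competent samples, with a median coefficient of variation of 8.84% in depleted and 24.3% in competent cells. For signalling genes it was 4.80% in depleted and 4.67% in competent cells. What sets this library apart was not tested, and results that rest on it are given with and without it.

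**Figure D1:**
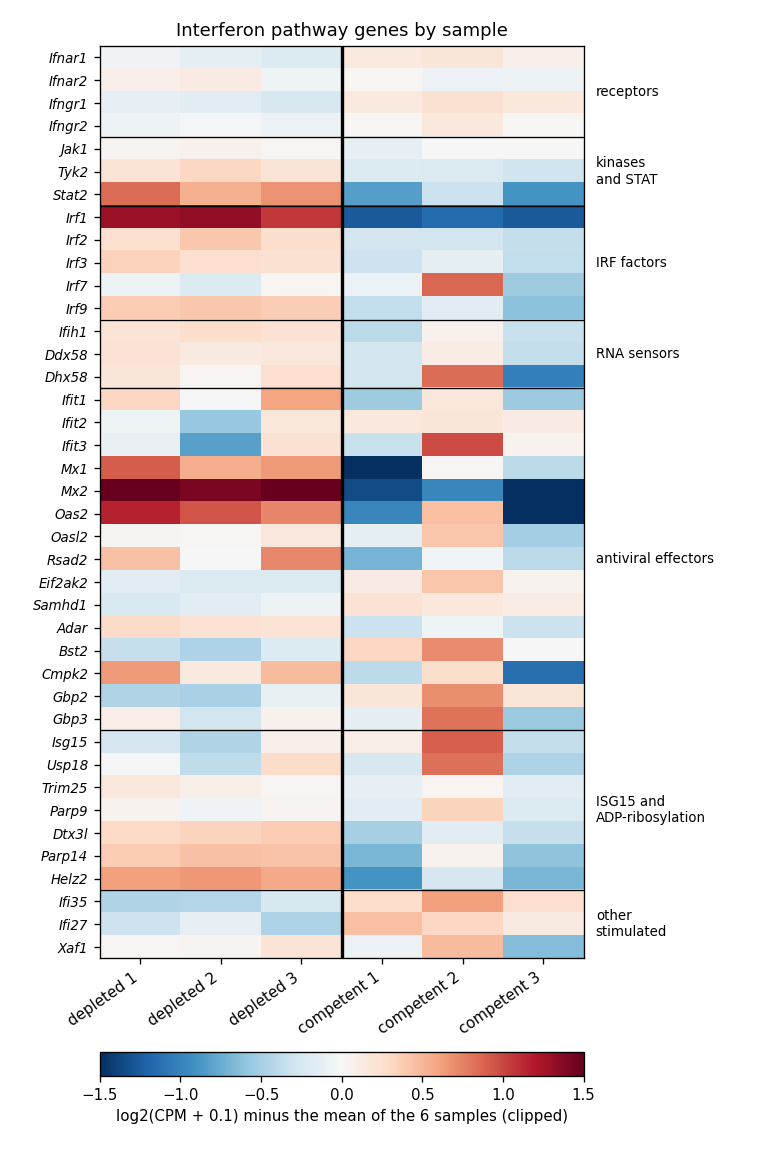
Heat map of the 40 genes (rows, by role) in the 3 depleted and 3 competent samples (columns). Colour is log2(CPM + 0.1) minus the mean of the 6 samples, clipped at ±1.5. Irf1, Mx2 and Stat2 are higher in all 3 depleted samples, and competent replicate 2 is the highest competent column in 26 of the 28 effector rows.

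The comparison asked how interferon signalling and effector genes differ between cilia-depleted and cilia-competent cells. In depleted cells 4 of the 5 IRF genes rose, with Irf1 at 5.51-fold, Irf7 did not pass, and Stat2 rose 2.54-fold, while 3 of the 4 receptor chains fell slightly. Among effector genes Mx2 rose most, at 8.55-fold, and Oas2, Mx1, Rsad2 and Ifit1 also rose, though Oas2 and Ifit1 did not pass under DESeq2. Ifi35, Gbp2, Bst2, Ifi27, Eif2ak2 and Samhd1 fell, whereas Isg15, Ifit3 and Usp18 did not pass the test. Of the 40 genes, 19 rose and 9 fell at an adjusted p below 0.05 (Benjamini-Hochberg, edgeR quasi-likelihood test, adjusted over 13839 genes), and 12 did not pass. Over all genes tested 69.2% passed (34.9% rose and 34.3% fell), set against 47.5% and 22.5% of the members, with no test of the list. The median log2 change was 0.12 over the 40 genes and -0.006 over all genes. Of the members 6 rose above 2-fold, against a background of 7.38%, and the largest fall was 1.69-fold. In 17 genes all 3 depleted samples lay above all 3 competent samples, against a background of 36.4%, and in 9 all lay below, against 36.1% (72.5% in either direction). Since these are bulk samples, fewer cells of a type and less RNA per cell cannot be told apart.

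Signalling genes had a median log2 change of 0.28, with 6 that rose, 3 that fell and 3 that did not pass. Effector genes had a median of 0.12, with 13 that rose, 6 that fell and 9 that did not pass. Rises made up 50% of signalling and 46.4% of effector genes, against 34.9% of all genes tested. Falls made up 25% and 21.4%, against 34.3%. The counts by role below are to be read against the same shares of all genes. Without competent replicate 2 the median was 0.34 for signalling and 0.41 for effector genes, so the order of the groups depended on that library. In that fit the signalling genes gave 6 rises and 2 falls, and the effector genes 17 rises and 6 falls, where 33.3% of all genes rose and 33.4% fell. Without competent replicate 3 the effector median was -0.10. All 19 rises remained without competent replicate 2, and Dhx58, Oasl2, Parp9 and Xaf1 joined them. That library was the highest competent sample in most of these genes. Leaving it out therefore raises the changes, and these counts lend the rises no support. Members that rose numbered 17 without competent replicate 3.

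Of the 4 receptor chains 3 fell in depleted cells and Ifnar2 did not pass. Ifngr1, the ligand-binding chain for interferon gamma, was the most abundant of the 40 in competent cells, at 351 ± 21.2 TPM (a level scaled for exon length and library total) in depleted and 456 ± 12.5 TPM in competent cells (SD, n = 3 each). Its samples had 324, 317 and 299 CPM in depleted cells, against 389, 415 and 393 CPM in competent cells. The groups did not overlap, and Ifngr1 was 1.27-fold lower (log2 change -0.35, SE 0.0461, adjusted p = 1.36e-05). Ifnar1, a chain of the type I receptor, was 1.21-fold lower, with means of 72.7 ± 3.75 CPM in depleted and 87.8 ± 3.13 CPM in competent cells (adjusted p = 0.000222). Ifngr2, the second chain of the gamma receptor, fell by 0.13 on the log2 scale (adjusted p = 0.0274), a call lost without depleted replicate 1 (-0.12), depleted replicate 3 (-0.12) or competent replicate 2 (-0.09). Ifnar2, the other type I chain, did not pass, at 27.1 ± 1.80 CPM in depleted and 25.5 ± 1.22 CPM in competent cells (log2 change 0.09, adjusted p = 0.248).

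Of the 3 kinase and STAT genes, Stat2 and Tyk2 rose and Jak1 did not pass. Stat2, the subunit that gives ISGF3 its activation domain (chr10:128270559-128292849), had 79.7, 64.3 and 71.0 CPM in depleted samples, against 25.1, 35.5 and 24.0 CPM in competent samples. The lowest depleted sample was well above competent replicate 2, the highest of its group. Stat2 rose 2.54-fold (log2 change 1.34, SE 0.12, adjusted p = 3.19e-07). The kinase gene Tyk2, whose product sits on Ifnar1, had 59.5, 63.8 and 59.3 CPM in depleted samples, against 44.9, 44.6 and 42.1 CPM in competent samples, a 1.39-fold rise (adjusted p = 1.70e-06). Jak1, whose kinase serves both receptors, had 96.7, 97.8 and 95.2 CPM in depleted samples, against 86.3, 93.4 and 93.5 CPM in competent samples. The groups of Jak1 did not overlap, yet it did not pass (log2 change 0.08, adjusted p = 0.109), and its change was -0.07 once the trend with transcript length was removed.

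Of the 5 IRF genes 4 rose in depleted cells and Irf7 did not pass. Irf1, an activator induced by interferon gamma and by inflammatory cytokines (chr11:53770014-53778374), had 458, 468 and 391 CPM in depleted samples, against 77.7, 83.6 and 77.8 CPM in competent samples. It rose 5.51-fold (log2 change 2.46, SE 0.0667, adjusted p = 2.89e-12), and competent replicate 2 was only 1.08-fold of its group. Per length of transcript Irf1 stood at 352 TPM in depleted and 65.2 TPM in competent cells, level with Ifngr1 as the most abundant of the 40 in depleted cells.
Irf9, the DNA-binding subunit of ISGF3, had 31.5, 32.0 and 31.4 CPM in depleted samples, against 18.8, 21.6 and 15.8 CPM in competent samples. The depleted samples were nearly equal and all above the competent ones, a 1.69-fold rise (adjusted p = 3.81e-06). Irf2, known as a repressor that competes with Irf1 for the same sites, had 54.9, 61.6 and 56.0 CPM in depleted samples, against 38.3, 38.3 and 36.2 CPM in competent samples (1.53-fold, adjusted p = 3.41e-07). Irf3, which is activated by phosphorylation downstream of nucleic acid sensors, had 65.1, 60.7 and 60.0 CPM in depleted samples, against 41.0, 46.3 and 39.5 CPM in competent samples (1.46-fold, adjusted p = 3.00e-06).
Irf7, the interferon-inducible amplifier of type I interferon production, differed from the other IRF genes. Its samples had 31.1, 28.6 and 33.6 CPM in depleted cells, against 31.1, 60.0 and 22.8 CPM in competent cells, so that competent replicate 2 stood far above the other 5 samples. Irf7 did not pass (log2 change -0.28, adjusted p = 0.324). Without competent replicate 2 the log2 change was 0.20 (adjusted p = 0.102), and without competent replicate 3 it was -0.56 (adjusted p = 0.0207).

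**Figure D2:**
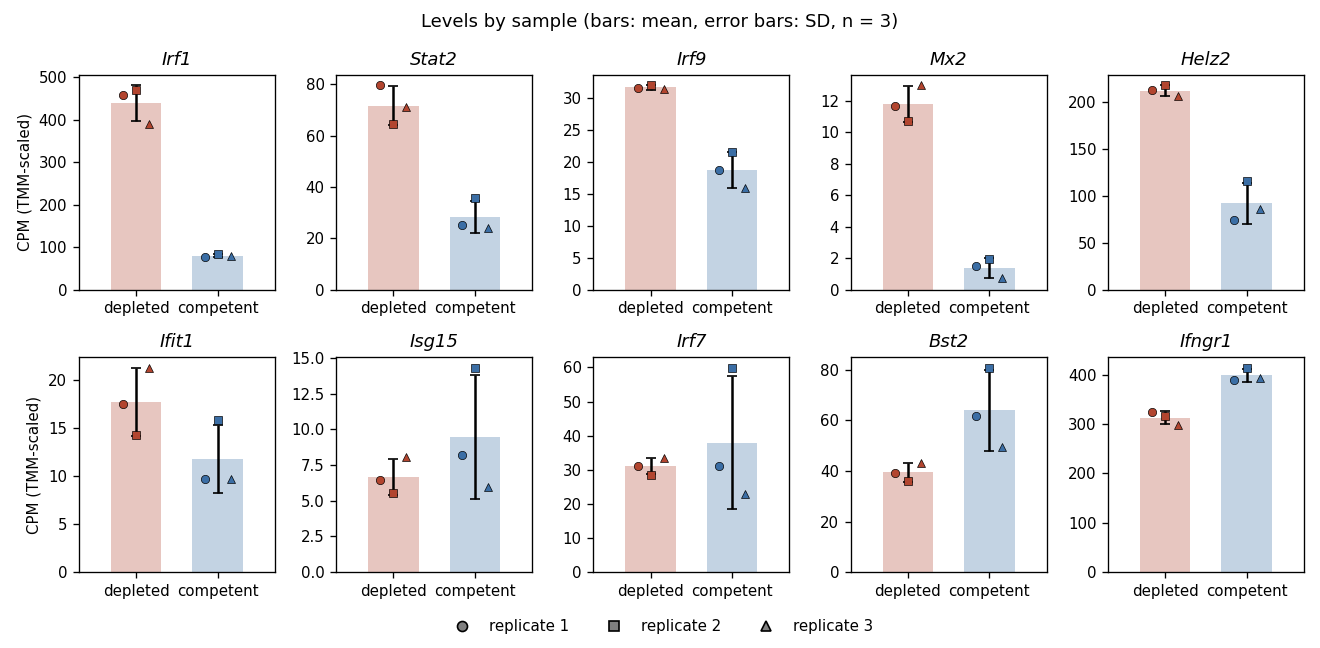
TMM-scaled CPM of 10 of the genes in each depleted and competent sample. Bars are means and error bars SD (n = 3), and symbols mark the replicate number. Irf1 at 391 to 468 CPM in depleted and 77.7 to 83.6 CPM in competent samples does not overlap, whereas competent replicate 2 (square) lifts the competent mean of Irf7, Isg15 and Bst2.

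Of the 3 cytosolic RNA sensors, the 2 that signal, Ifih1 and Ddx58, rose modestly. Ifih1, which encodes MDA5, the sensor of long double-stranded RNA, had 46.9, 49.1 and 47.6 CPM in depleted samples, against 30.7, 42.6 and 32.4 CPM in competent samples (1.36-fold, adjusted p = 0.000879). Ddx58, which encodes RIG-I, the sensor of RNA with a 5′ triphosphate, had 69.6, 65.9 and 67.5 CPM in depleted samples, against 49.6, 64.6 and 46.8 CPM in competent samples (1.26-fold, adjusted p = 0.00524). In both genes competent replicate 2 came close to the depleted samples without overlapping them. Dhx58, which encodes LGP2, a regulator of the other two, was scarce, at 2.60 ± 0.208 CPM in depleted and 2.41 ± 1.64 CPM in competent cells, and did not pass (log2 change 0.11, adjusted p = 0.787). Without competent replicate 2 its log2 change was 0.80 (adjusted p = 0.00798).

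The 15 antiviral effector genes moved in both directions, with 7 that rose, 4 that fell and 4 that did not pass. The rises were led by the Mx genes and Oas2, all of low level. Mx2, a dynamin-like GTPase gene annotated in GENCODE as a polymorphic pseudogene (chr16:97535308-97560900), had 11.6, 10.7 and 13.0 CPM in depleted samples, against 1.50, 1.95 and 0.717 CPM in competent samples. The groups were far apart, at 8.55-fold (log2 change 3.10, SE 0.21, adjusted p = 2.30e-08). Its neighbour Mx1 had 22, 21 and 25 counts in depleted samples, against 2, 15 and 11 counts in competent samples. The ratio of the summed Mx1 counts, scaled for library size, was 2.81 with a 95% exact interval of 1.78 to 4.53, which covers counting error only (adjusted p = 0.00747). Oas2, whose enzyme makes the activator of RNase L, had 3.29, 2.84 and 2.44 CPM in depleted samples, against 0.675, 1.98 and 0.212 CPM in competent samples (2.98-fold, adjusted p = 0.00576). Without competent replicate 2 the log2 change of Oas2 was 2.69 in place of 1.58, and with DESeq2 the adjusted p was 0.0802.

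The neighbouring genes Rsad2 and Cmpk2 rose by similar amounts. Rsad2, which encodes viperin, had 9.35, 6.80 and 11.4 CPM in depleted samples, against 4.17, 6.62 and 5.12 CPM in competent samples (1.73-fold, adjusted p = 0.00183). Cmpk2, a mitochondrial nucleotide kinase gene, had 4.67, 3.30 and 4.16 CPM in depleted samples, against 2.23, 3.59 and 1.30 CPM in competent samples, with overlap through competent replicate 2. Cmpk2 rose 1.70-fold (adjusted p = 0.0210), which no longer passed under DESeq2 (adjusted p = 0.104) or without depleted replicate 1 (log2 change 0.66), depleted replicate 3 (0.74) or competent replicate 3 (0.46). The RNA-editing enzyme gene Adar rose 1.38-fold, at 107 ± 3.32 CPM in depleted and 77.4 ± 8.41 CPM in competent cells (adjusted p = 2.09e-05), although 16.8% of its exon length overlaps Chrnb2 on the other strand, and how strand was handled in counting is not stated.
The Ifit genes, a cluster on chromosome 19 whose products bind viral RNA, did not move together. Ifit1 had 17.5, 14.2 and 21.2 CPM in depleted samples, against 9.72, 15.8 and 9.67 CPM in competent samples, and rose 1.51-fold (adjusted p = 0.00880). It did not pass under DESeq2 (adjusted p = 0.0715) or without depleted replicate 3 (log2 change 0.43, adjusted p = 0.0636). Ifit3 had 8.12, 4.93 and 10.3 CPM in depleted samples, against 6.93, 17.3 and 9.08 CPM in competent samples, with full overlap (log2 change -0.51, adjusted p = 0.140). Its log2 change was -0.05 without competent replicate 2 and -0.76 without competent replicate 1 (adjusted p = 0.0172). Ifit2 had 11.3 ± 2.80 CPM in depleted and 13.7 ± 0.311 CPM in competent cells and did not pass (log2 change -0.28, adjusted p = 0.0871). It passed as lower with the length trend removed (-0.36) and without depleted replicate 3 (-0.47). These genes have close copies, among them Ifit3b, between which counting can split reads.
Of those that fell, Bst2 encodes tetherin, which holds budding virus at the cell surface (chr8:71534255-71537456). Bst2 had 39.1, 35.9 and 43.2 CPM in depleted samples, against 61.6, 80.9 and 49.3 CPM in competent samples, a 1.62-fold fall (adjusted p = 0.000398). The fall was smaller without competent replicate 2 (log2 change -0.50) and with the length trend removed (-0.36). Gbp2, an interferon-induced GTPase gene, had 9.19, 8.95 and 11.6 CPM in depleted samples, against 14.3, 20.4 and 14.3 CPM in competent samples, with no overlap (1.64-fold lower, adjusted p = 0.000502). Eif2ak2, which encodes the double-stranded RNA kinase PKR, was 1.32-fold lower, at 56.3 ± 1.47 CPM in depleted and 74.5 ± 10.2 CPM in competent cells (adjusted p = 0.000368). Samhd1, whose enzyme depletes the deoxynucleotides that viruses need, was 1.25-fold lower, at 32.8 ± 1.76 CPM in depleted and 40.9 ± 1.50 CPM in competent cells (adjusted p = 0.000157). Oasl2 and Gbp3 did not pass, with log2 changes of 0.11 (adjusted p = 0.565) and -0.19 (adjusted p = 0.552). Oasl2, an oligoadenylate synthetase-like gene, had a log2 change of 0.38 without competent replicate 2 (adjusted p = 0.00145) and -0.09 without competent replicate 3.

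The 7 genes of the ISG15 and ADP-ribosylation pathways gave 4 rises and no fall. Helz2, Parp14, Dtx3l and Trim25 rose, while Isg15, Usp18 and Parp9 did not pass. Helz2, a nuclear co-activator and helicase gene with the longest transcript of the 40 at 10109 nt (chr2:181227615-181242027), had 212, 218 and 206 CPM in depleted samples, against 74.1, 116 and 85.9 CPM in competent samples. It rose 2.30-fold (log2 change 1.20, SE 0.115, adjusted p = 6.09e-07), and 0.91 on the log2 scale with the length trend removed. Parp14, a mono-ADP-ribosyltransferase gene, had 79.9, 83.6 and 82.6 CPM in depleted samples, against 38.1, 64.0 and 40.4 CPM in competent samples (1.73-fold, adjusted p = 0.000200).
Dtx3l, an E3 ligase gene whose product binds Parp9, had 43.6, 44.5 and 46.0 CPM in depleted samples, against 25.01, 31.4 and 27.8 CPM in competent samples (1.59-fold, adjusted p = 1.61e-06). Parp9, which lies on the other strand from Dtx3l and shares 9.4% of its exon length with it, had 53.3 ± 2.03 CPM in depleted and 53.0 ± 11.7 CPM in competent cells and did not pass (log2 change 0.01, adjusted p = 0.967). Its log2 change was 0.19 without competent replicate 2 (adjusted p = 0.00682), and it was below 0 under 8 other alternatives. Trim25, the ligase that ubiquitinates RIG-I, rose by 0.18 on the log2 scale, at 62.7 ± 4.73 TPM in depleted and 56.6 ± 3.87 TPM in competent cells (adjusted p = 0.0147). With the length trend removed Trim25 was at -0.01 (adjusted p = 0.806), and the call was also lost with upper-quartile scaling (adjusted p = 0.0647) and without depleted replicate 1 or competent replicate 3 (0.13 each).
Isg15, the ubiquitin-like modifier and a stimulated gene (chr4:156199424-156200818), had 6.42, 5.55 and 8.04 CPM in depleted samples, against 8.19, 14.3 and 5.95 CPM in competent samples. The groups overlapped and Isg15 did not pass (log2 change -0.50, SE 0.251, adjusted p = 0.0945). Its log2 change was -0.08 without competent replicate 2 (adjusted p = 0.689) and -0.76 without competent replicate 3 (adjusted p = 0.00601). With no filter on low counts Isg15 passed as lower (adjusted p = 4.67e-06), on the same overlapping counts, and the cause was not tested. Usp18, the protease that removes ISG15 and brakes Ifnar2, had 5.70, 4.40 and 7.02 CPM in depleted samples, against 4.87, 10.3 and 4.14 CPM in competent samples, and did not pass (log2 change -0.16, adjusted p = 0.621). Usp18 was at 0.34 without competent replicate 2 (adjusted p = 0.103).

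Of the remaining 3 stimulated genes, 2 with short transcripts fell. Ifi35, whose product binds the transcription factor partner Nmi, had 22.9, 23.0 and 26.5 CPM in depleted samples, against 37.5, 48.2 and 37.3 CPM in competent samples (1.69-fold lower, adjusted p = 8.21e-06). In Ifi35, 16.8% of the exon length overlaps Gm11626 on the opposite strand. Ifi27, which encodes a small hydrophobic protein of mitochondrial or nuclear membranes, had 16.3, 18.5 and 14.6 CPM in depleted samples, against 27.6, 25.1 and 22.1 CPM in competent samples (1.51-fold lower, adjusted p = 7.41e-05). Xaf1, a pro-apoptotic gene, had 11.7 ± 0.816 CPM in depleted and 10.8 ± 4.17 CPM in competent cells and did not pass (log2 change 0.12, adjusted p = 0.613). Xaf1 was at 0.44 without competent replicate 2 (adjusted p = 0.0112) and at -0.13 without competent replicate 3.

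**Figure D3:**
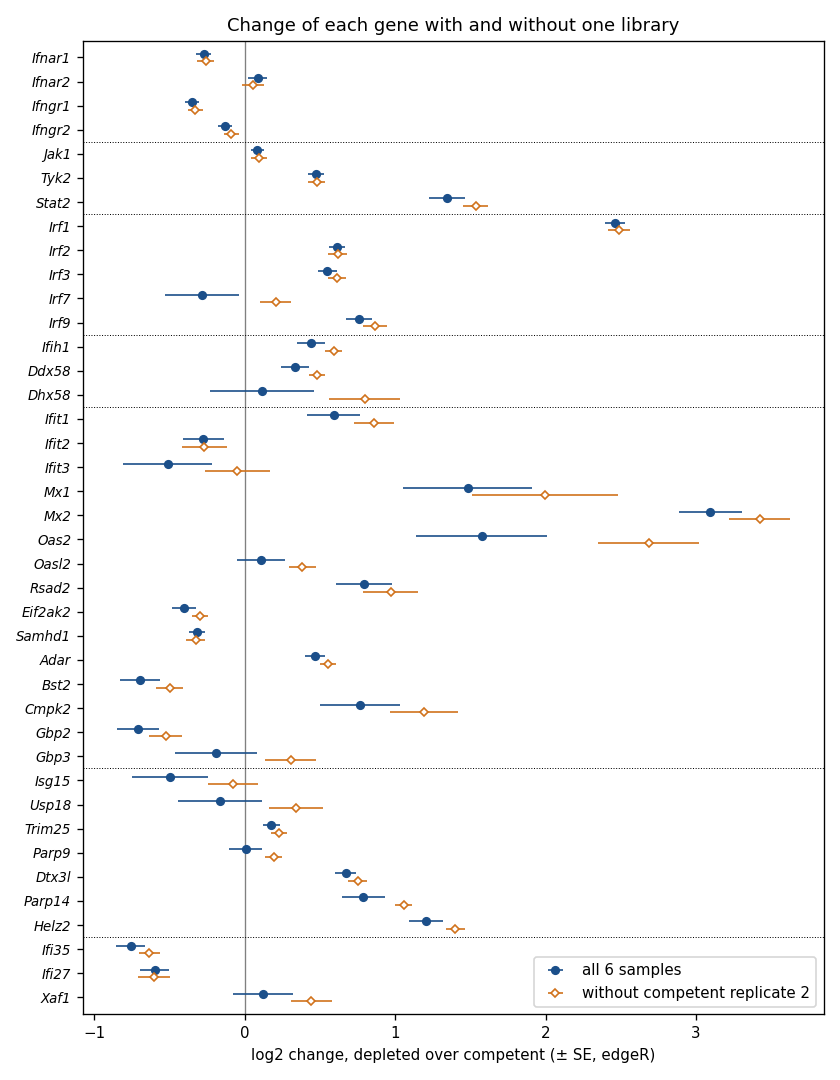
log2 change of each gene, depleted over competent, with its standard error, fitted with all 6 samples (filled circles) and without competent replicate 2 (open diamonds). Dotted lines separate the roles. Irf1 at 2.46 and 2.49 hardly moves between the fits, whereas Oas2 goes to 2.69 and Dhx58 to 0.80 without that library.

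Change ran with transcript length, in these genes as in the table as a whole. Over 13831 genes Spearman's rho between the longest annotated transcript and the log2 change was 0.315, and the median log2 change was -0.27 among genes with transcripts up to 1800 nt and 0.25 among those from 5166 nt, the shortest and longest of 5 equal classes. Over the 40 members rho was 0.466, a description of genes measured in the same 6 libraries and not of independent points. The members with transcripts under 1400 nt were Isg15 at 756 nt, Bst2 at 792 nt, Ifi27 at 977 nt and Ifi35 at 1362 nt. Their log2 changes were all negative, -0.50, -0.70, -0.60 and -0.76, and with the length trend removed they were -0.17, -0.36, -0.23 and -0.44. At the other end Helz2 and Parp14, at 10109 and 7417 nt, were at 1.20 and 0.79, and at 0.91 and 0.55 with the trend removed. Irf1 and Mx2, with transcripts of 2137 and 2476 nt, lay far above the genes of like length and changed little under the correction, to 2.60 and 3.17. With the trend removed 18 members rose and 10 fell, where 34.5% of all genes rose and 34.3% fell. The part of RNA quality or library preparation in this trend was not tested.

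**Figure D4:**
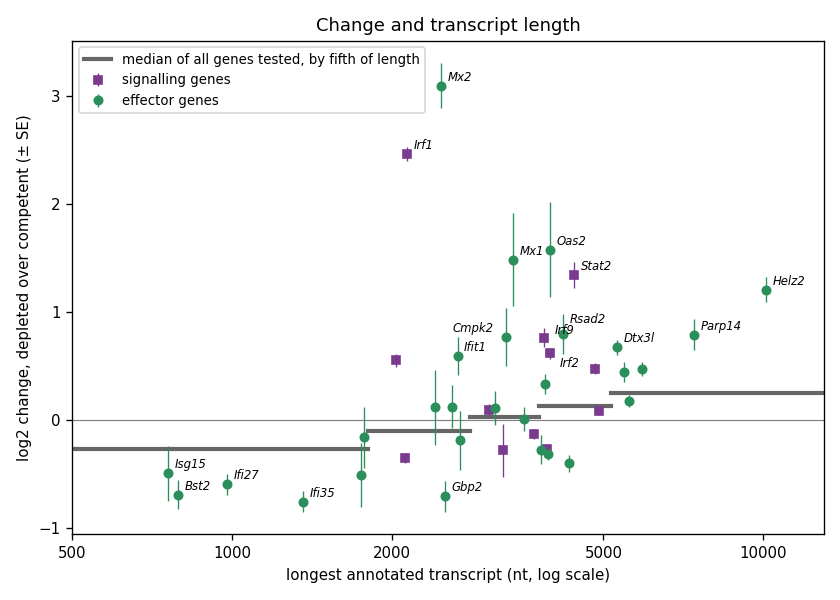
log2 change of the 40 genes, depleted over competent with its standard error, against the longest annotated transcript (log scale). Squares are signalling and circles effector genes, and grey bars are medians of all genes tested in 5 classes of length. The short-transcript genes Isg15, Bst2, Ifi27 and Ifi35 lie between -0.50 and -0.76, below the median of -0.27 for their class, and Irf1 and Mx2 lie far above theirs.

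Interferon ligand genes were all but silent. Of 13 ligand genes of types I, II and III, 5 had no count in any sample, the highest count in a sample was 5, and their summed counts were 17 in depleted and 16 in competent samples. None of these genes reached the level needed for the test, and interferon transcripts below these counts were not detectable at this depth. The chains of the type III receptor, which responds to interferon lambda in epithelia, both fell. Il10rb was 1.37-fold lower, at 27.2 ± 0.404 CPM in depleted and 37.3 ± 0.544 CPM in competent cells (adjusted p = 1.86e-06). Ifnlr1 was 1.29-fold lower, at 11.2 ± 1.47 CPM in depleted and 14.5 ± 0.719 CPM in competent cells (adjusted p = 0.00295).

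Of 13 tested genes of nucleic acid sensing adaptors and kinases, 5 rose and 4 fell (median log2 change 0.08 over the 13). These are 38.5% and 30.8%, near the 34.9% and 34.3% of all genes tested. Ticam1, which encodes TRIF, the adaptor of Toll-like receptor 3, rose 3.29-fold, at 54.2 ± 3.37 CPM in depleted and 16.5 ± 1.39 CPM in competent cells (adjusted p = 1.34e-10). The receptor gene Tlr3, named after its value was seen, was 1.40-fold lower (adjusted p = 7.63e-06). It had 29.1 ± 1.85 CPM in depleted and 40.8 ± 2.17 CPM in competent cells. Ikbke, which encodes a kinase that activates Irf3, rose 1.56-fold, at 74.8 ± 4.77 CPM in depleted and 47.9 ± 3.41 CPM in competent cells. The DNA sensor gene Cgas rose 1.59-fold and Tmem173, which encodes its partner STING, was 1.73-fold lower, both at low levels. Cgas had 3.19 ± 0.372 CPM in depleted and 2.00 ± 0.293 CPM in competent cells, and Tmem173 had 2.23 ± 0.162 CPM in depleted and 3.86 ± 0.319 CPM in competent cells.

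Of 11 tested genes among other STAT and IRF factors and their partners, 7 rose and 2 fell (median log2 change 0.34 over the 11). These are 63.6% and 18.2%, beside 34.9% and 34.3% of all genes tested, with no test of the list. Irf2bp2, a co-repressor that binds Irf2, rose 7.41-fold, at 466 ± 1.42 CPM in depleted and 62.9 ± 1.95 CPM in competent cells (adjusted p = 1.21e-14), and its relative Irf2bpl rose 2.66-fold. Stat3 and Stat5a, factors that serve other cytokines, rose 1.59-fold and 1.71-fold. The kinase gene Jak2, named after its value was seen, was 1.44-fold lower (adjusted p = 3.21e-07). It had 81.3 ± 3.42 CPM in depleted and 117.0 ± 4.64 CPM in competent cells.

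Of 14 genes listed as negative regulators, 8 rose and 3 fell (median log2 change 0.31 over the 14). These are 57.1% and 21.4%, beside 34.9% and 34.3% of all genes tested, with no test of the list. Usp18, already a member, was among those that did not pass. Ube2l6, whose enzyme attaches ISG15 and is not a negative regulator, fell most and was named after its value was seen. It was 2.06-fold lower, at 5.93 ± 0.245 CPM in depleted and 12.3 ± 2.26 CPM in competent cells (adjusted p = 5.82e-06). Socs1, which blocks JAK kinases, had 3.19 ± 0.731 CPM in depleted and 0.563 ± 0.0753 CPM in competent cells (5.68-fold, adjusted p = 5.00e-07). Socs3 rose 3.86-fold, at 108 ± 10.3 CPM in depleted and 28.0 ± 1.42 CPM in competent cells, Cish rose 2.61-fold and Socs2, of the same family and named after its value was seen, rose 1.13-fold (adjusted p = 0.00514) but did not pass with the length trend removed (log2 change 0.07, adjusted p = 0.186). Tnfaip3, which encodes the deubiquitinase A20, a brake on NF-kB and on RIG-I signalling, rose 4.75-fold, at 1341 ± 39.5 CPM in depleted and 282.5 ± 15.3 CPM in competent cells.

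In a further list of 56 stimulated genes 50 were tested, giving 20 rises, 9 falls and 21 genes that did not pass (median log2 change 0.08). The rises are 40% and the falls 18%, beside 34.9% and 34.3% of all genes tested, with no test of the list. Of the T-cell-attracting chemokine genes Cxcl10 and Cxcl11 rose, while Ccl5 and Cxcl9, both named after their values were seen, were scarce or absent. Ccl5 had 0.448 ± 0.0585 CPM in depleted and 0.372 ± 0.108 CPM in competent cells and did not pass (1.19-fold, adjusted p = 0.540). Cxcl9 had no count in any sample, so no direction can be read. Cxcl10 had 153 ± 15.5 CPM in depleted and 3.76 ± 0.0487 CPM in competent cells (40.6-fold, adjusted p = 2.02e-14), and Cxcl11 had 3.48 ± 0.316 CPM in depleted and 0.236 ± 0.131 CPM in competent cells (14.6-fold, adjusted p = 4.65e-08). Oas1b rose 2.66-fold, at 5.10 ± 0.716 CPM in depleted and 1.93 ± 0.543 CPM in competent cells. Ifit1bl1, a copy within the Ifit cluster, was 3.62-fold lower, at 0.997 ± 0.281 CPM in depleted and 3.69 ± 1.06 CPM in competent cells (adjusted p = 1.61e-05).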

How the data were processed

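RNA from 3 cilia-depleted and 3 cilia-competent samples was sequenced after poly-A selection with a directional library kit, per the labels' protocols. The deposited values were raw counts per gene, not normalized, and columns of other samples numbered 0. Columns named KO were read as depleted and those named WT as competent. STAR 2.7.1a and featureCounts are among the tools in the submitters' processing notes, which give GRCm38 as the build. Annotation and strand setting: not given in the sources used here. Coordinates, symbols and lengths came from GENCODE M21 (GRCm38), which held 32009 of 32061 identifiers.

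The test was that of edgeR 4.0.16 under R 4.3.3 (filterByExpr, TMM, two-sided quasi-likelihood F-test, group as the only term, Benjamini-Hochberg over 13839 genes, threshold 0.05). Every adjusted p is from this test unless DESeq2 (1.42.0) is named. Log2 changes and the folds of rises are depleted over competent, and folds given as lower or as a fall are competent over depleted. TPM used the union of exons. The length correction was a loess offset per library (span 0.3). Between samples of a group, chi-square divided by its degrees of freedom came to 5.33 to 9.44, and across groups 286 to 319, so no pair of samples agreed within sampling noise. The code was tested on simulated data. Members and lists were chosen with earlier results of these data known. All 40 members are named, with values in each sample for those past the threshold with a log2 change of at least 0.5 in size and for Isg15, Ifit1, Ifit3, Irf3 and Jak1, and for some others. From each further list up to 4 called genes with the largest change are named. Alternatives were other scalings, DESeq2, limma-voom 3.58.1, other filters, the replicate block, leaving out each sample, a stricter threshold, a 2-fold minimum and the length offset.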

Additional observations from a re-analysis of the deposited data

How the results depend on the processing

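Of the 28 members that passed, 23 (15 that rose and 8 that fell) kept their call under all 16 alternatives other than the 2-fold minimum, Mx1 under the 15 that kept it, since 1 CPM in 3 samples removed it. With a 2-fold minimum 6 members were higher and 0 lower (signalling 2 and 0, effector 4 and 0; all genes 1021 and 345). The signalling median log2 change was 0.20 with the length offset, alone or with the replicate block. Leaving out each sample gave medians of 0.079 to 0.41 for all members, 0.26 to 0.34 for signalling and -0.10 to 0.41 for effector genes. Members called higher then numbered 17 to 23 and lower 8 to 11. With no filter on low counts 13 members were lower, Irf7, Ifit2, Ifit3 and Isg15 being added, and the cause was not tested.

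The sign of uncalled or small changes turned as follows. With the length offset, Jak1 was at -0.072, Usp18 at 0.059, Trim25 at -0.015 and Parp9 at -0.054, and with the replicate block added they were at -0.072, 0.12, -0.013 and -0.038. Parp9 was at -0.044 with upper-quartile scaling and -0.0019 with no filter. Leaving out samples, Irf7 ranged from -0.56 to 0.20, Dhx58 from -0.25 to 0.80, Oasl2 from -0.093 to 0.38, Gbp3 from -0.47 to 0.30, Usp18 from -0.41 to 0.34, Parp9 from -0.10 to 0.19 and Xaf1 from -0.13 to 0.44.

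Samples with the same replicate number did not deviate together (correlations -0.030, 0.017 and -0.0052 over 13839 genes), and no sample correlated best with its own number. With the replicate number as a block 19 members were higher and 10 lower, Ifit2 being added (adjusted p = 0.0455), and 4828 of all genes were higher and 4698 lower. Depth limits Mx1, Oas2, Cmpk2 and Dhx58, which had 2 to 150 counts in every sample.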
